A study of Zea mays with 11 samples.

Results

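Maize endosperm sampled 10 days after pollination (DAP) was set against the endosperm sampled a day earlier and a day later, gene by gene. A gene was called transient when its 10 DAP value lay above both the 9 and the 11 DAP values, or below both, on the log2(FPKM + 1) scale. FPKM is fragments per kilobase of transcript scaled to the mapped fragments of the library, as the authors deposited it. Of the 34145 genes in the table, 9291 reached 5 FPKM in at least 1 of the 3 libraries and were kept. Of these, 2098 (22.6%) stood above both neighbours and 2587 (27.8%) stood below both. The other 4606 lay between their neighbours or equalled one.

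All plants were the Mo17 inbred line, untreated, field grown and self-pollinated on a single day. The kernels were dissected by hand at midday, and poly(A) RNA was sequenced. The 3 libraries compared here are endosperm at 10, 9 and 11 DAP. Endosperm at 7, 13, 15, 20 and 25 DAP, whole kernels at 3 and 5 DAP and an ear leaf at 13 DAP complete the 11 libraries and are quoted where they add to a result. The labels give 1 library per stage and do not say how many ears or kernels each holds. There is therefore no replicate spread, no test and no p-value for any difference below, and a stage cannot be told apart from its library.

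The endosperm of maize feeds the embryo and later the seedling. At this age its cells stop dividing, begin to copy their genomes without division, and switch on the genes for starch and for the zein storage proteins. Chaperones are proteins that fold other proteins or keep damaged ones from clumping. Some are made at all times, while the small heat shock proteins, HSP101 and certain HSP70 genes are known as heat-inducible in plants.

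Depth cannot be given, since the files hold FPKM and no read counts, and a gene at 0 is only listed at 0. The 10 DAP library listed 6768 genes at 0, the 9 DAP library 9853 and the 11 DAP library 7250. Across the genes kept, the Pearson correlation of log2(FPKM + 1) was 0.841 between 10 and 9 DAP, 0.938 between 10 and 11 DAP, and 0.803 between 9 and 11 DAP. The 9 DAP library was thus the one farthest from the other 2. Its part in the results below was not tested beyond the values given beside each.

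The labelled tissue was checked against cell type markers. The 8 transfer cell genes, which mark the sugar-importing base of the endosperm, summed to 1257 FPKM at 10 DAP, against 1461 FPKM at 9 DAP and 855.6 FPKM at 11 DAP, with none listed at 0. The 5 genes of the embryo-surrounding region summed to 53.33 FPKM at 10 DAP, against 57.48 FPKM at 9 DAP and 25.57 FPKM at 11 DAP. The 7 aleurone genes summed to 173.4, 108.8 and 182.5 FPKM in that order of stages. The 11 embryo genes summed to 185 FPKM at 10 DAP, against 40.63 FPKM at 9 DAP and 195.4 FPKM at 11 DAP. Most of the embryo sum was the oleosin gene ole1, with 121.5 FPKM at 10 DAP, against 30.79 FPKM at 9 DAP and 109.1 FPKM at 11 DAP. The embryo genes glb1 and ole17 had 12.15 and 23.86 FPKM at 10 DAP, against 0.64 and 2.26 FPKM at 9 DAP. The 65 photosynthesis genes, a mark of green maternal tissue, summed to only 21.76 FPKM at 10 DAP, against 25.82 FPKM at 9 DAP and 24.84 FPKM at 11 DAP. The pericarp gene p1 stood at 0.02 FPKM at 10 DAP and was listed at 0 at 9 and 11 DAP. In these mixed tissues, fewer cells of a type and less RNA per cell cannot be told apart.

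Most transient differences were small, and which side held more genes depended on the scaling. Upper quartile scaling gave 1761 genes above both (19%) and 3077 below both (33.1%). Setting the median of log2 ratios to 0 gave 2575 above (27.7%) and 2039 below (21.9%). The median 10 minus 9 DAP difference of all genes kept was -0.14 under upper quartile scaling, against -0.03 as deposited, in log2(FPKM + 1). The median ratio to the nearer neighbour was 1.13 for genes above both and 1.11 for genes below both. At 2-fold or more, 106 genes (1.14% of those kept) stood above both neighbours and 11 (0.118%) stood below both. At 4-fold or more there were 41 above and 0 below. At 8-fold there were 15 above, and at 16-fold 7 above. The filter favours the high side, since a gene near 0 at 9 and 11 DAP can enter through its 10 DAP value and then must peak. Of the 106 peaks, 73 (68.9%) reached 5 FPKM at 10 DAP only, against 3.38% of all genes kept. Among the 7932 genes averaging at least 5 FPKM over the 8 endosperm libraries, 52 (0.656%) stood 2-fold above both neighbours and 8 (0.101%) below both. That average includes 10 DAP, so a gene high at 10 DAP alone can still pass it.

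More genes stood apart from 9 DAP than from 11 DAP. Against 9 DAP alone, 929 genes (10.0%) were at least 2-fold higher at 10 DAP and 274 (2.95%) at least 2-fold lower. Against 11 DAP alone, 188 (2.02%) were at least 2-fold higher and 156 (1.68%) at least 2-fold lower. Of the 106 genes with a 2-fold peak, 45 (42.5%) were also at least 2-fold lower at 9 than at 7 DAP, against 8.27% of all genes kept. The peaks were chosen partly for a low 9 DAP value, so that choice sets part of this share. Without those genes, 61 peaks were left. With 7 DAP in place of 9 DAP, 83 genes peaked, of which 78 were among the 106.

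The same count was made at each inner stage of the endosperm series. At 9 DAP, 20 genes (0.211%) were 2-fold above both neighbours and 523 (5.53%) were 2-fold below both. The count above both was 34 for 11 DAP (0.374%), 13 for 13 DAP (0.149%), 25 for 15 DAP (0.31%) and 117 for 20 DAP (1.41%). The count below both at these 4 stages was 28 (0.308%), 19 (0.217%), 11 (0.136%) and 70 (0.843%). The 10 DAP peak count was near that of 20 DAP, whose neighbours lie 5 days away, and the 9 DAP dip count was higher than any other. Neighbouring comparisons share libraries and the days between stages differ, so these counts are not independent.

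**Figure D1:**
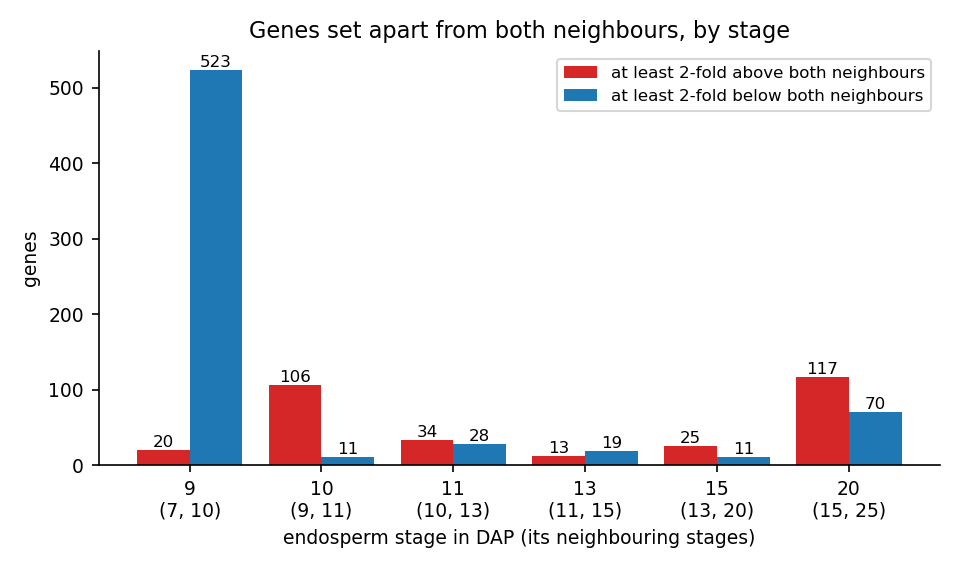
Number of genes at least 2-fold above (red) or below (blue) both neighbouring endosperm libraries, for each inner stage in days after pollination, with the neighbouring stages in brackets. At 10 DAP 106 genes stood above and 11 below, while at 9 DAP 523 stood below both neighbours.

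Heat shock genes made up the most visible group of peaks. The list held 77 genes whose name or Arabidopsis match is a heat shock protein or heat shock factor. Of these, 41 reached 5 FPKM and were kept, and the other 36 were under it in all 3 libraries. Of the 41, 20 (48.8%, against 22.6% of all genes kept) stood above both neighbours and 1 (2.44%, against 27.8%) below both. The other 20 lay in between. At 2-fold or more, 16 stood above both, which is 39% of the 41 against 1.14% of all genes kept, and none stood below. Of the 16, 10 reached 5 FPKM at 10 DAP alone, so that being kept largely set their call. Without a filter the share was 16 of all 77 (20.8%), against 0.618% of all 34145 genes. Among genes averaging at least 5 FPKM over the 8 endosperm libraries it was 11 of 36 (30.6%), against 0.656%. That average includes the 10 DAP value. The 16 summed to 1968 FPKM at 10 DAP, against 117.7 FPKM at 9 DAP and 356.9 FPKM at 11 DAP. The ratio of (FPKM + 1) at 10 DAP to that at 9 DAP ran between 7.38 and 93.96 over the 16, and the ratio to 11 DAP between 3.78 and 31.53. Copies within these families are alike in sequence and can share reads, so the split between them is uncertain.

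**Figure D2:**
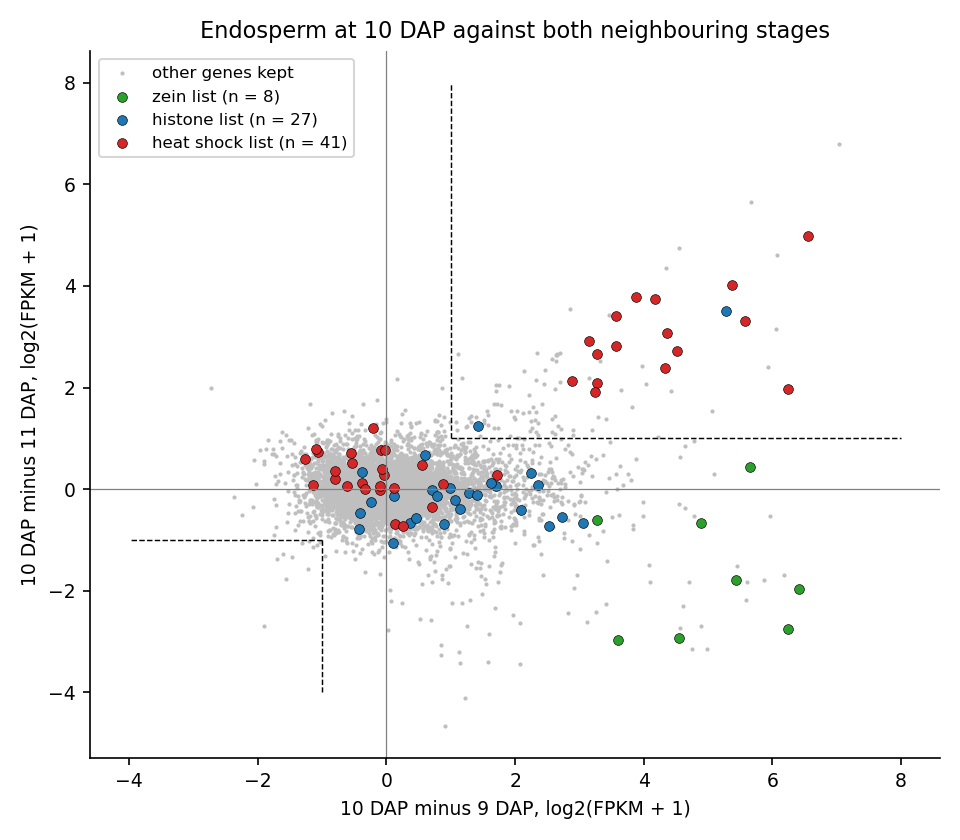
Each point is a gene kept, with its 10 DAP minus 9 DAP difference on the x axis and its 10 DAP minus 11 DAP difference on the y axis, both in log2(FPKM + 1). Dashed lines mark 2-fold above both (upper right) and below both (lower left). 16 of the 41 heat shock genes (red) lie in the upper right corner, while 7 of the 8 zein genes (green) lie at the lower right, above 9 DAP and below 11 DAP.

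The small heat shock proteins, which hold unfolding proteins in solution, accounted for 9 of the 16. Of the 17 on the list, 9 were kept and stood at least 2-fold above both neighbours, while 8 were under 5 FPKM in all 3 libraries. For 6 of the 9, 10 DAP was the only stage of the 3 to reach 5 FPKM, which nearly fixes their call. Their sum was 997.6 FPKM at 10 DAP, against 13.39 FPKM at 9 DAP and 172.7 FPKM at 11 DAP. The class II gene hsp18c had 92.96 FPKM at 10 DAP, was listed at 0 at 9 DAP and had 1.98 FPKM at 11 DAP. Its other endosperm values were 4.54 FPKM (7 DAP), 26.89 FPKM (13 DAP), 80.23 FPKM (15 DAP), 3.53 FPKM (20 DAP) and 0.09 FPKM (25 DAP). It was thus highest at 10 and 15 DAP, with its lowest values at 9, 11 and 25 DAP and an intermediate one at 13 DAP.

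The class II gene hsp18f, picked after its values were seen, had 202.3 FPKM at 10 DAP, against 3.28 FPKM at 9 DAP and 19.53 FPKM at 11 DAP. The related gene hsp18a had 41.85 FPKM at 10 DAP, against 0.04 FPKM at 9 DAP and 1.65 FPKM at 11 DAP. Both were again higher at 15 DAP than at 11 DAP, with 120.4 FPKM for hsp18f and 26.68 FPKM for hsp18a. The most abundant member was AC208204.3_FG006, matched to Arabidopsis HSP18.2. It had 495.6 FPKM at 10 DAP, against 5.54 FPKM at 9 DAP and 125.2 FPKM at 11 DAP, then 318.0 FPKM (13 DAP), 325.9 FPKM (15 DAP) and 502.9 FPKM (20 DAP). Its 10 DAP peak was therefore matched by the 20 DAP library. A second HSP18.2 match, GRMZM2G046382, had 104.6 FPKM at 10 DAP, against 4.26 FPKM at 9 DAP and 19.11 FPKM at 11 DAP, and was higher still at 20 DAP with 221.1 FPKM. The gene hsp26, matched to the plastid protein HSP21, had 23.32 FPKM at 10 DAP, against 0.06 FPKM at 9 DAP and 2.68 FPKM at 11 DAP.

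The disaggregase hsp101, which pulls proteins out of aggregates, had 115.2 FPKM at 10 DAP, against 4.66 FPKM at 9 DAP and 12.87 FPKM at 11 DAP. Over the later stages it had 33.47 FPKM (13 DAP), 42.09 FPKM (15 DAP), 66.99 FPKM (20 DAP) and 6.90 FPKM (25 DAP). Its 10 DAP value was the highest of the 8 endosperm libraries, with 20 DAP next.

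Among 13 HSP70 genes kept, 5 were at least 2-fold above both neighbours. The gene labelled Hsp70 (GRMZM2G310431) had 639.6 FPKM at 10 DAP, against 85.84 FPKM at 9 DAP and 146.3 FPKM at 11 DAP. The gene hsp70-5 had 160.2 FPKM at 10 DAP, against 12.56 FPKM at 9 DAP and 21.91 FPKM at 11 DAP. The HSC70-1 match AC209784.3_FG007 had 21.35 FPKM at 10 DAP, against 0.52 FPKM at 9 DAP and 0.62 FPKM at 11 DAP. The HSP70T-2 match GRMZM2G024718 had 11.18 FPKM at 10 DAP, against 0.38 FPKM at 9 DAP and 0.62 FPKM at 11 DAP. The fifth, GRMZM2G366532, was the lowest, with 8.60 FPKM at 10 DAP, against 0.02 FPKM at 9 DAP and 1.54 FPKM at 11 DAP. The remaining 8 HSP70 genes had no 2-fold peak. GRMZM2G079668 (70.37, 20.66 and 58.19 FPKM at 10, 9 and 11 DAP) and GRMZM2G111475 (70.84, 38.00 and 66.19 FPKM) still stood above both neighbours. The others, among them the most abundant, hsp70-4, stood between theirs.

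Of the 17 heat shock factor genes, the transcription factors that switch these chaperones on, 3 were kept. Hsf26, matched to Arabidopsis HSFA6B, had 14.36 FPKM at 10 DAP, against 0.30 FPKM at 9 DAP and 0.44 FPKM at 11 DAP. In no other endosperm library did it exceed 0.69 FPKM, so among endosperm stages it was high at 10 DAP alone. The other 2 factors lay between their neighbours.

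Most of the other heat shock list genes kept were lower at 10 than at 9 DAP. The 25 heat shock list genes that were kept but had no 2-fold peak summed to 4685 FPKM at 10 DAP, against 6693 FPKM at 9 DAP and 3775 FPKM at 11 DAP. Of the 25, 18 were lower at 10 than at 9 DAP, and 14 had their highest endosperm value at 9 DAP. The 25 are what is left once the 2-fold peaks are taken out, so that choice sets part of both counts. The same shares over all genes kept were not taken. The 9 cytosolic and organellar HSP90 genes, which mature signalling proteins, summed to 1504 FPKM at 10 DAP, against 2810 FPKM at 9 DAP and 1053 FPKM at 11 DAP. The 4 HSP60 genes, which fold proteins inside mitochondria and plastids, summed to 1053, 1171 and 639.3 FPKM in the same order. Of these 13 genes, 2 stood above both neighbours, the HSP90.5 matches GRMZM5G813217 (1.39-fold above 11 DAP, on the FPKM + 1 scale) and GRMZM2G002220 (1.01-fold), both under 2-fold.

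Further chaperone genes outside the wording of the list peaked as well. The gene hsp82, matched to a heat-inducible Arabidopsis HSP90, had 112.2 FPKM at 10 DAP, against 0.68 FPKM at 9 DAP and 3.61 FPKM at 11 DAP. The small heat shock protein gene hsp22 had 578.2 FPKM at 10 DAP, against 62.34 FPKM at 9 DAP and 256.7 FPKM at 11 DAP. The co-chaperone match GRMZM2G070863 (Hop2, which links HSP70 to HSP90) had 151.1 FPKM at 10 DAP, against 45.48 FPKM at 9 DAP and 38.88 FPKM at 11 DAP. GRMZM2G097135, matched to BCL-2-associated athanogene 5, a family of HSP70 partners, had 26.69 FPKM at 10 DAP, against 0.96 FPKM at 9 DAP and 7.97 FPKM at 11 DAP. The last 3 were picked after their values were seen.

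**Figure D3:**
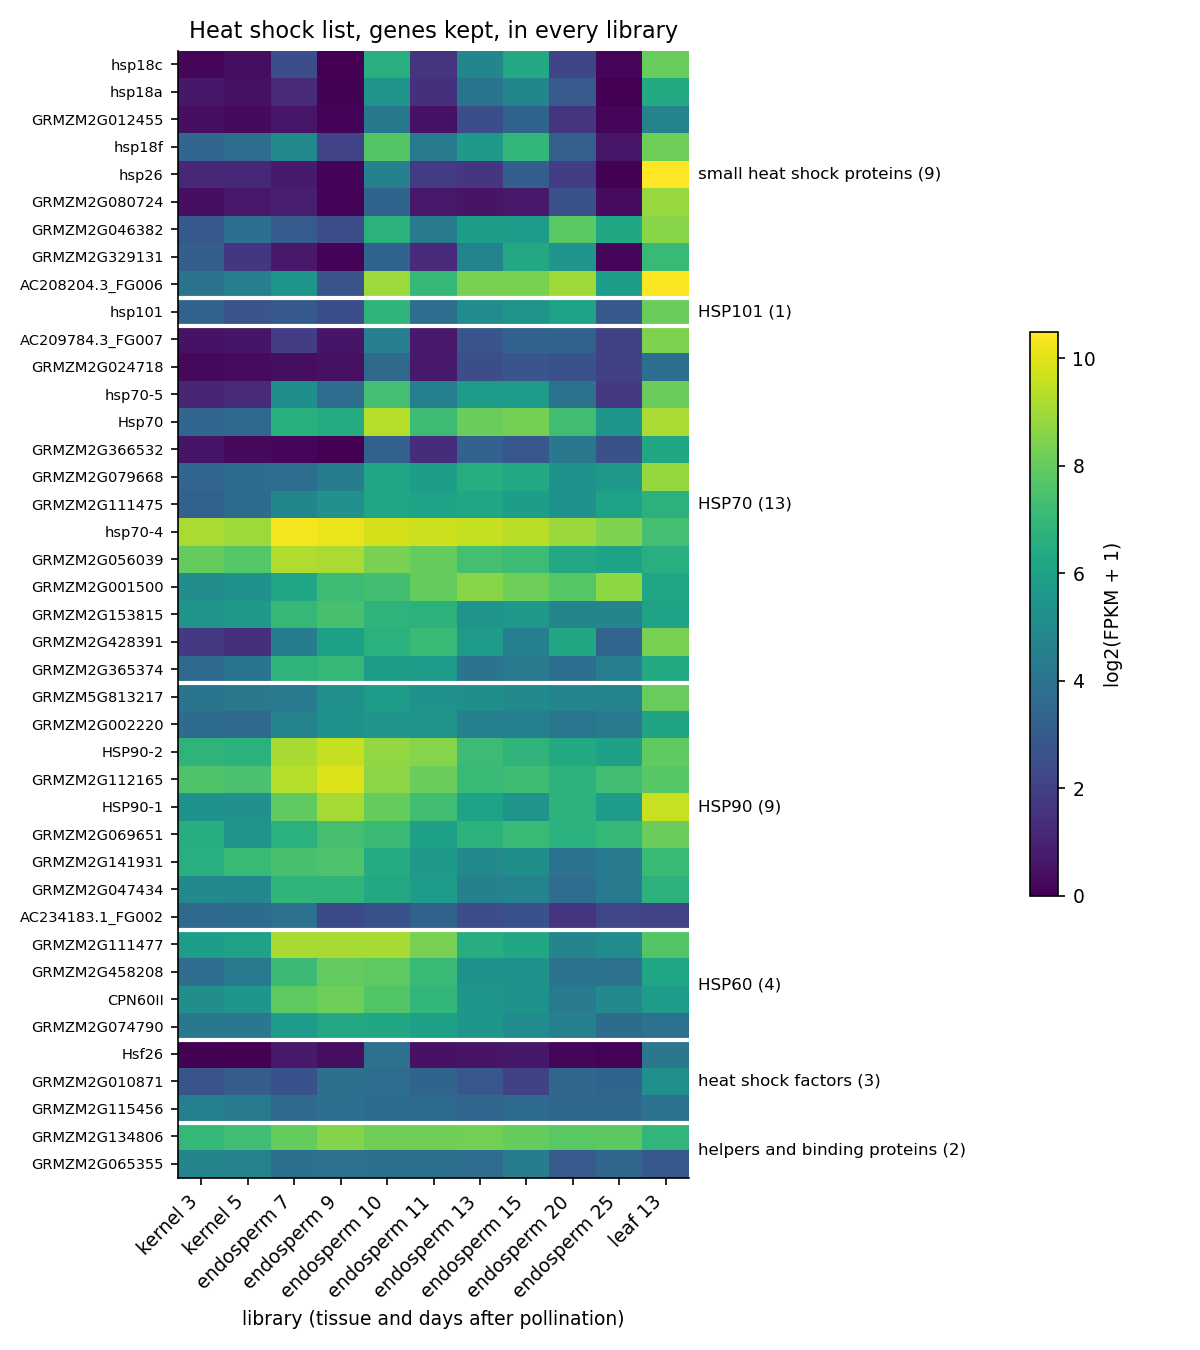
Level, as log2(FPKM + 1), of the 41 heat shock list genes kept, by class, in the 11 libraries. The 9 small heat shock proteins, HSP101 and 5 of 13 HSP70 genes are brighter at endosperm 10 DAP than at 9 or 11 DAP and brightest, for most, in the leaf, while most HSP90 and HSP60 genes are dimmer at 10 and 11 DAP than at 9 DAP.

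The whole series, with the 3 libraries that chose them, gives the wider course of the 16 peaking heat shock genes. Their summed FPKM over the endosperm stages was 237.3 (7 DAP), 117.7 (9 DAP), 1968 (10 DAP), 356.9 (11 DAP), 872.2 (13 DAP), 1130 (15 DAP), 1064 (20 DAP) and 198.2 (25 DAP). It was 63.61 FPKM in 3 DAP kernels, 71.88 in 5 DAP kernels and 6003 in the leaf. Of the 16, 12 had their highest endosperm value at 10 DAP, 14 were higher at 13 than at 11 DAP, and all 16 were lower at 25 than at 20 DAP. Of all 9291 genes kept, 993 had their highest endosperm value at 10 DAP and 2457 were higher at 13 than at 11 DAP. The share lower at 25 than at 20 DAP was not taken over all genes kept. The 16 were chosen for a 10 DAP value above those of 9 and 11 DAP, so that choice sets part of the counts of 12 and 14. The leaf exceeded the 10 DAP endosperm in 15 of the 16 (against 27.5% of all genes kept), and by at least 2-fold in 9 (against 10.2%). The exception was Hsp70, with 567.0 FPKM in the leaf. The 10 DAP level was thus the top of the endosperm series for most of them, but it was no maximum of the study.

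With 13 DAP in place of 11 DAP, 12 of these genes still peaked at 2-fold or more, and with 7 DAP in place of 9 DAP all 16 did. Without genes at least 2-fold lower at 9 than at 7 DAP, 10 were left.

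A second part of the 106 peaks was higher at 10 DAP than in every other library of the study. Among all genes kept, 23 (0.248%) were at least 2-fold above each of the other 10 libraries, and all 23 are among the 106. None was on the heat shock list, which holds 41 of the 9291 genes kept and 16 of the 106 peaks. The 23 were thus chosen for a high 10 DAP value. Most of them reached 5 FPKM at 10 DAP only, which nearly fixes their call as peaks. The 2 largest peaks of the whole comparison belonged here and carry no name in the tables used. GRMZM2G082799 had 140.3 FPKM at 10 DAP, against 0.08 FPKM at 9 DAP and 0.27 FPKM at 11 DAP, and no other library held more than 0.63 FPKM. GRMZM2G066546 had 49.63 FPKM at 10 DAP, was listed at 0 at 9 and 11 DAP, and reached no more than 0.34 FPKM elsewhere.

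Among the named ones, GRMZM2G109448, matched to a histone H2A, had 48.31 FPKM at 10 DAP, against 0.27 FPKM at 9 DAP and 3.31 FPKM at 11 DAP. It was under 1 FPKM in all other libraries. GRMZM2G154278, matched to Arabidopsis EMB2769, had 19.87 FPKM at 10 DAP, against 0.89 FPKM at 9 DAP and 0.95 FPKM at 11 DAP. Its highest value elsewhere was 1.89 FPKM. Several more sat just over the 5 FPKM limit, such as the actin 3 match GRMZM5G878615 with 5.24 FPKM at 10 DAP, listed at 0 at 9 DAP and at 0.09 FPKM at 11 DAP, which was picked after its value was seen. All these values rest on a single library.

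Some peaks were higher still in the young whole kernel, but no more often than other genes. Of the 106, 15 were at least 2-fold higher in a 3 or 5 DAP kernel than at 10 DAP. That is 14.2%, against 17.4% of all genes kept. None of the 15 was on the heat shock list, which holds 16 of the 106. GRMZM2G150091, matched to a type H thioredoxin that reduces disulfide bonds, was the largest. It had 121.6 FPKM at 10 DAP, against 0.84 FPKM at 9 DAP and 12.85 FPKM at 11 DAP. In kernels it had 355.5 FPKM at 3 DAP and 1280 at 5 DAP, in 7 DAP endosperm 52.82 FPKM, and in endosperm of 13 DAP or older under 1 FPKM. The protease match GRMZM2G039538 (ARA12, a subtilisin) had 12.05 FPKM at 10 DAP, against 0.04 FPKM at 9 DAP and 2.36 FPKM at 11 DAP. It reached 221.6 FPKM in 5 DAP kernels and had 11.21 FPKM in 7 DAP endosperm, near its 10 DAP value. The lipid transfer protein gene plt1 had 7.38 FPKM at 10 DAP, against 0.81 FPKM at 9 DAP and 1.31 FPKM at 11 DAP, and 47.95 FPKM in 5 DAP kernels. These last 2 genes were picked after their values were seen. Kernels include the maternal seed coat and nucellus, and the share of such tissue in the endosperm libraries was not tested beyond the markers above.

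Taking all 106 peaks, 78 (73.6%) were also at least 2-fold higher at 10 than at 7 DAP, against 5.24% of all genes kept, and 84 (79.2%) at least 2-fold higher than at 13 DAP, against 16.9%. The 10 DAP library was the highest of the 8 endosperm libraries for 84 of the 106, against 993 of all 9291 genes kept. It was the highest by at least 2-fold for 48 of the 106. All genes kept also held 48 such genes, because any such gene must be a 2-fold peak, so the selection fixes that count. In 24 of the 106 (22.6%) the leaf was at least 2-fold above the 10 DAP value, against 10.2% of all genes kept. Of the 24, 9 were on the heat shock list, as were 16 of all 106. These genes were chosen for a high 10 DAP value, so a high rank of 10 DAP among the other libraries is partly set by that choice. Of the 106, 47 (44.3%) have a name or an Arabidopsis match in the tables used, against 51.1% of all genes kept.

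The storage protein genes were not transient at 10 DAP but were passing through it. All 8 zein genes on the list were kept, and 7 lay above their 9 DAP and below their 11 DAP value. Of all 9291 genes kept, 4606 lay between their neighbours or equalled one, in either direction. The median difference was 5.16 on the log2(FPKM + 1) scale for 10 minus 9 DAP and -1.87 for 10 minus 11 DAP, against -0.03 and -0.02 for all genes kept. The gamma zein gene zp27 had 1529 FPKM at 10 DAP, against 157.4 FPKM at 9 DAP and 2342 FPKM at 11 DAP. The alpha zein gene fl2 had 12.23 FPKM at 10 DAP, against 0.09 FPKM at 9 DAP and 102.3 FPKM at 11 DAP.

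The exception on the list was the beta zein gene zp15. It had 484.3 FPKM at 10 DAP, against 8.68 FPKM at 9 DAP and 356.9 FPKM at 11 DAP. That is a transient distance of 0.44 on the log2(FPKM + 1) scale. It was higher later, with 1304 FPKM at 13 DAP and 1666 FPKM at 20 DAP, so 10 DAP was not the top of its course. The delta zein gene dzs18, which is outside the list and was picked after its values were seen, had 214.8 FPKM at 10 DAP, against 5.45 FPKM at 9 DAP and 73.15 FPKM at 11 DAP. Its 13 DAP value was 178.8 FPKM, so 11 DAP was a low point between higher libraries.

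Starch genes also lay mostly in between. Of 16 kept, 12 stood between their neighbours, against 4606 of all 9291 genes kept between or equal to one. Another 2 stood above both (12.5%, against 22.6%) and 2 below both (12.5%, against 27.8%), all under 2-fold. The ADP-glucose pyrophosphorylase gene sh2 had 511.4 FPKM at 10 DAP, against 148.3 FPKM at 9 DAP and 870.2 FPKM at 11 DAP, and its partner subunit bt2 had 149.3, 2.44 and 430.0 FPKM. The granule-bound starch synthase gene wx1 had 140.8 FPKM at 10 DAP, against 1.27 FPKM at 9 DAP and 203.3 FPKM at 11 DAP. The starch synthase gene du1 was the abundant one below both, with 41.42 FPKM at 10 DAP, against 47.85 FPKM at 9 DAP and 53.76 FPKM at 11 DAP. It was picked after its values were seen. The zein activator genes o2 (45.91, 5.93 and 90.83 FPKM at 10, 9 and 11 DAP) and pbf1 (27.17, 15.38 and 64.89 FPKM) likewise lay between their neighbours.

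Of 4 sucrose-cleaving genes kept, 2 stood above both neighbours (50%, against 22.6% of all genes kept) and 2 lay in between. The cell wall invertase gene mn1, which splits sucrose at the base of the kernel, had 24.05 FPKM at 10 DAP, against 9.17 FPKM at 9 DAP and 13.85 FPKM at 11 DAP. The sucrose synthase genes sh1 (261.0, 52.27 and 560.4 FPKM at 10, 9 and 11 DAP) and sus1 (172.1, 74.63 and 197.1 FPKM) lay between their neighbours. Of the 4 embryo-surrounding genes kept, 1 (25%, against 22.6%) stood above both neighbours. It was esr6, with 18.93 FPKM at 10 DAP, against 8.50 FPKM at 9 DAP and 10.13 FPKM at 11 DAP. Its 7 DAP value was far higher, at 111.9 FPKM, so 9 DAP was a low point between higher libraries. The other 3 lay between, as did the esr1 gene GRMZM2G046086 with 11.47 FPKM at 10 DAP, against 24.96 FPKM at 9 DAP and 5.28 FPKM at 11 DAP. Of the 8 transfer cell genes, 3 stood above both (37.5%, against 22.6%) and 5 lay between. Lists this short hold too few genes to be set apart from that share. The meg2 gene GRMZM2G094054 had 121.4 FPKM at 10 DAP, against 286.4 FPKM at 9 DAP and 90.39 FPKM at 11 DAP, while betl10 differed little from 9 DAP, with 569.1 FPKM at 10 DAP, against 548.9 FPKM at 9 DAP and 405.4 FPKM at 11 DAP.

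The folding machinery of the endoplasmic reticulum, where zeins are packed, was mixed. Of 21 genes kept, 7 stood above both neighbours (33.3%, against 22.6% of all genes kept), 6 below both (28.6%, against 27.8%) and none by 2-fold, shares near those of all genes. The lumenal HSP70 gene bip1 had 180.2 FPKM at 10 DAP, against 85.52 FPKM at 9 DAP and 98.49 FPKM at 11 DAP. Its copy bip2 had 68.22 FPKM at 10 DAP, against 65.04 FPKM at 9 DAP and 44.00 FPKM at 11 DAP. The disulfide isomerase gene pdi had 1113 FPKM at 10 DAP, against 734.1 FPKM at 9 DAP and 996.6 FPKM at 11 DAP. The near-identical bip copies can share reads. The calreticulin match CRH, second in abundance on the list, lay in between, with 402.8 FPKM at 10 DAP, against 820.2 FPKM at 9 DAP and 307.6 FPKM at 11 DAP.

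Histone genes stood farther from 9 DAP than from 11 DAP. Of 27 kept, 8 stood above both neighbours (29.6%, near the 22.6% of all genes kept), 3 below both (11.1%, against 27.8%) and 16 in between. Their median difference was 1.07 for 10 minus 9 DAP and -0.14 for 10 minus 11 DAP on the log2(FPKM + 1) scale. The abundant his2a1 had 281.9 FPKM at 10 DAP, against 126.9 FPKM at 9 DAP and 372.0 FPKM at 11 DAP. Apart from the H2A match above, 1 histone gene peaked at 2-fold, the H2B match GRMZM2G305027, with 22.18 FPKM at 10 DAP, against 7.61 FPKM at 9 DAP and 8.83 FPKM at 11 DAP, which was picked after its value was seen.

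Division genes were lower at 10 than at 9 DAP by their median and did not peak or dip at 10 DAP as a group. The 18 cell cycle genes kept had a median 10 minus 9 DAP difference of -0.57 and a 10 minus 11 DAP difference of 0.48. Of these, 3 stood above both (16.7%, against 22.6% of all genes kept) and 0 below both (against 27.8%). The 19 DNA replication genes had -0.70 and 0.17, with 1 above both (5.26%) and 6 below both (31.6%, near the 27.8% of all genes kept). The replication clamp gene pcna2 had 27.74 FPKM at 10 DAP, against 47.89 FPKM at 9 DAP and 29.12 FPKM at 11 DAP.

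**Figure D4:**
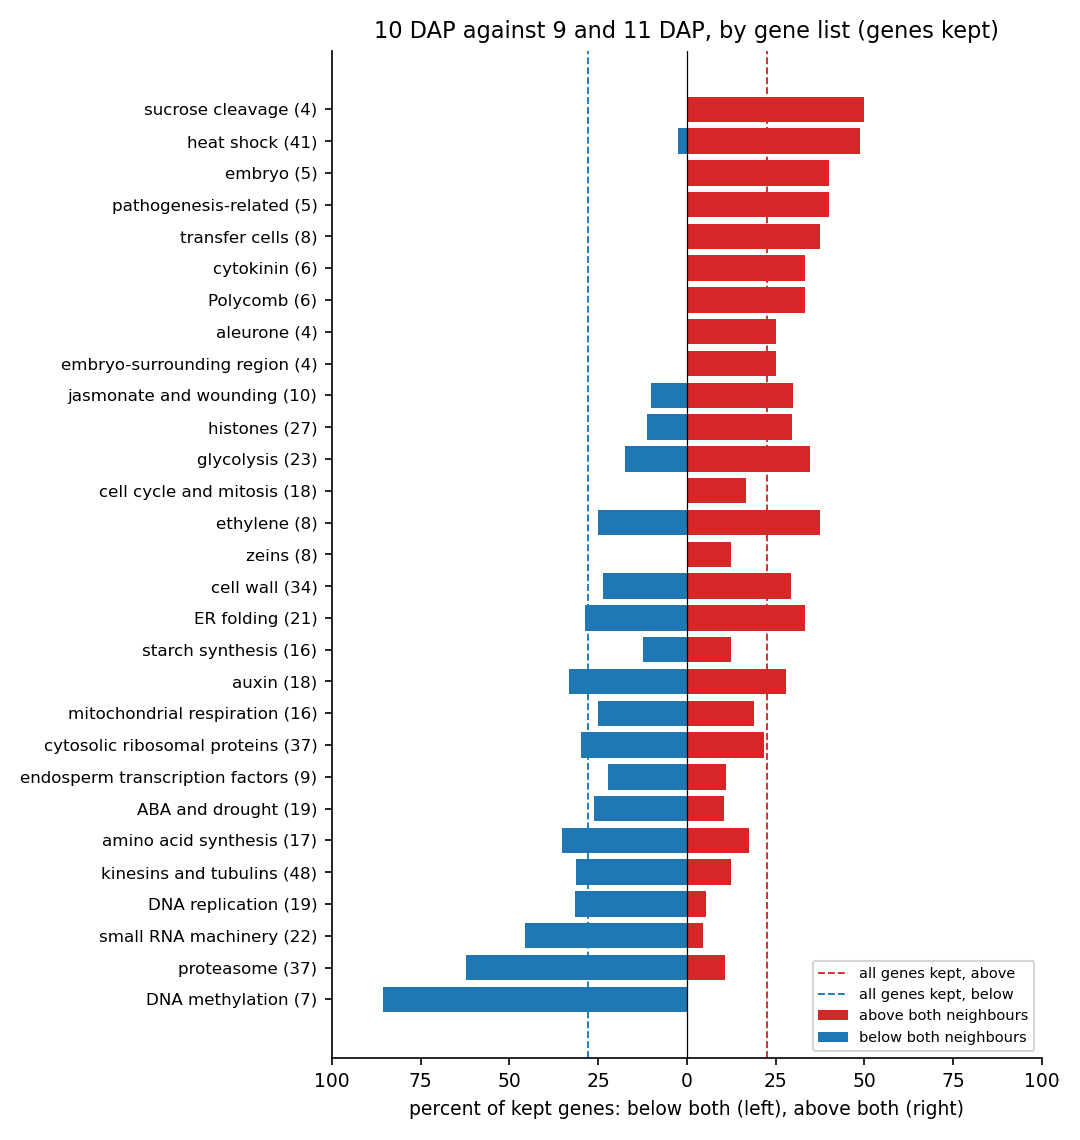
Share of each list's kept genes above both neighbours (red, right) and below both (blue, left) at 10 DAP, with the number kept in brackets and dashed lines at the 22.6% and 27.8% of all genes kept. Lists with under 4 genes kept are left out. Heat shock has 20 of 41 above both, and the proteasome 23 of 37 below both.

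Only 11 genes dipped by 2-fold or more, none by 4-fold. Of these, 4 (36.4%, against 51.1% of all genes kept) have a name or match. GRMZM2G445958, matched to the replication protein A subunit RPA2, which coats single-stranded DNA, had 7.59 FPKM at 10 DAP, against 22.64 FPKM at 9 DAP and 20.71 FPKM at 11 DAP. It had 1.44 FPKM in the 13 DAP library and 13.44 FPKM in the 15 DAP library, so it also varied between other neighbouring libraries. GRMZM2G145213, matched to the 14-3-3 protein GF14 omicron, had 37.57 FPKM at 10 DAP, against 88.66 FPKM at 9 DAP and 113.8 FPKM at 11 DAP. Its values of 35.72 FPKM at 7 DAP and 23.37 at 20 DAP were as low. The unnamed GRMZM2G302045 had the deepest dip, with 4.56 FPKM at 10 DAP, against 19.87 FPKM at 9 DAP and 35.02 FPKM at 11 DAP. GRMZM5G897480, also unnamed, had 5.15 FPKM at 10 DAP, against 17.12 FPKM at 9 DAP and 20.12 FPKM at 11 DAP, and at least 14.48 FPKM in every other library.

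The most abundant gene with a clear dip was fl3, which encodes a PLATZ protein acting with RNA polymerase III in the endosperm. It had 1004 FPKM at 10 DAP, against 1840 FPKM at 9 DAP and 1763 FPKM at 11 DAP, a distance of -0.81 on the log2(FPKM + 1) scale and so under 2-fold. Its values were 1014 FPKM in 7 DAP endosperm, 2243 FPKM in 13 DAP endosperm and 2785 FPKM in 15 DAP endosperm. The 10 DAP value was thus level with 7 DAP, and with 7 DAP in place of 9 DAP the distance was -0.01. Among other dips under 2-fold, the match to the splicing protein snRNP F, GRMZM2G168252, had 39.83 FPKM at 10 DAP, against 75.96 FPKM at 9 DAP and 76.47 FPKM at 11 DAP. The bZIP factor gene lip15 had 51.01 FPKM at 10 DAP, against 89.59 FPKM at 9 DAP and 88.78 FPKM at 11 DAP. The replication gene SLD5 had 9.42 FPKM at 10 DAP, against 17.12 FPKM at 9 DAP and 15.50 FPKM at 11 DAP.

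**Figure D5:**
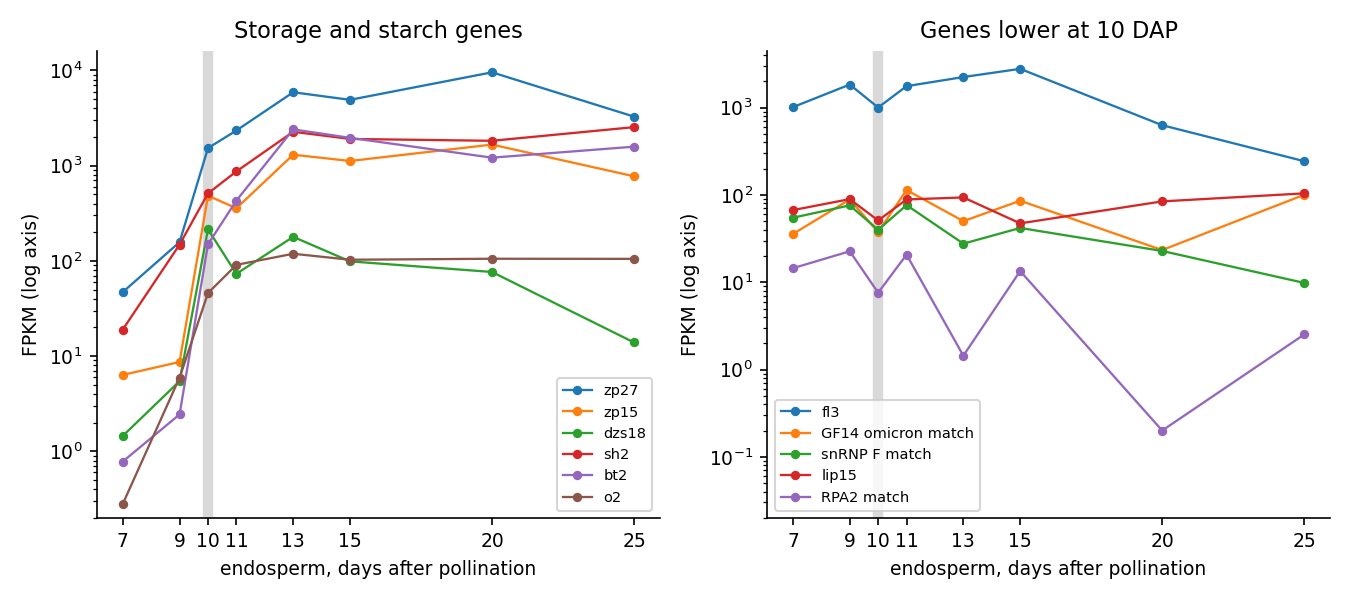
FPKM on a log axis over the 8 endosperm stages, with 10 DAP shaded. On the left, zp27, sh2, bt2 and o2 climb through 10 DAP, while zp15 and dzs18 are higher at 10 than at 11 DAP. On the right, fl3 and 4 other genes are lower at 10 DAP than at 9 and 11 DAP.

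Small dips were gathered in a few lists. Of 37 proteasome genes kept, subunits of the machine that degrades tagged proteins, 23 (62.2%) stood below both neighbours, against 27.8% of all genes kept, and 4 above both. All were under 2-fold, with a median of -0.16 for 10 minus 9 DAP and -0.22 for 10 minus 11 DAP. The regulatory ATPase match GRMZM2G095593 had 134.6 FPKM at 10 DAP, against 164.6 FPKM at 9 DAP and 177.6 FPKM at 11 DAP. The core subunit match AC149828.2_FG002 had 121.7 FPKM at 10 DAP, against 220.8 FPKM at 9 DAP and 136.2 FPKM at 11 DAP. Between 19 and 24 proteasome genes were below both under the 3 other scalings tried, while the count over all genes ran between 2039 and 3077.

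In the small RNA machinery, 10 of 22 genes (45.5%) stood below both neighbours, against 27.8% of all genes kept, and 1 above (4.55%, against 22.6%). Its ARGONAUTE 4 match GRMZM2G089743, which binds the small RNAs that guide DNA methylation, had 29.35 FPKM at 10 DAP, against 50.54 FPKM at 9 DAP and 31.71 FPKM at 11 DAP. The DNA methylation list, which also holds matches that remove methylation, such as DEMETER, had 6 of 7 genes (85.7%, against the same 27.8%) below both. Several were so by little. The demeter-like 1 match GRMZM2G422464 had 23.84 FPKM at 10 DAP, against 25.95 FPKM at 9 DAP and 24.18 FPKM at 11 DAP. In both lists the gap to 11 DAP was the smaller one, with medians of -0.08 and -0.04. The median 10 minus 11 DAP difference of all genes kept was -0.04 under upper quartile scaling and 0.04 under median ratio scaling. Gaps this small can therefore depend on the scaling.

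The remaining lists held at most 1 gene with a 2-fold peak and none with a 2-fold dip. The 3 that held 1 were cytokinin, cell wall and mitochondrial respiration. Their genes were all picked after their values were seen. The cytokinin response factor 2 match GRMZM2G142179 had 8.85 FPKM at 10 DAP, against 3.58 FPKM at 9 DAP and 3.38 FPKM at 11 DAP. The expansin-like A1 match GRMZM2G026147 had 7.87, 0.73 and 3.26 FPKM, and the succinate dehydrogenase 6 match GRMZM2G117984 had 15.11, 4.37 and 4.89 FPKM. In 7 DAP endosperm the 3 had 10.00, 14.63 and 9.22 FPKM, so the first 2 were higher there than at 10 DAP. The jasmonate, ethylene and abscisic acid lists had 10, 8 and 19 genes kept, and none peaked at 2-fold, which with 1.14% of all genes kept doing so is too few genes to set them apart.

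At the edge of the 2-fold limit, GRMZM2G166141 was just inside, with a distance of 1.02 (66.06 FPKM at 10 DAP, against 2.59 FPKM at 9 DAP and 32.14 FPKM at 11 DAP), and GRMZM2G109680 just outside, with 0.98 (8.23, 3.28 and 3.67 FPKM). On the low side, GRMZM2G043259 was inside at -1.02 and GRMZM2G580853 outside at -0.97. Under 5 FPKM in all 3 libraries, another 105 genes peaked and 1 dipped at 2-fold.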

How the data were processed

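Poly(A) RNA of 11 Mo17 libraries, 1 per stage, was sequenced by the authors. The deposited table gives FPKM per gene, computed by the authors. The submitters' processing notes name cutadapt, TopHat2 and edgeR, without versions or roles. Which genome build, annotation and FPKM step the authors used was not given in the sources used here. No read counts or depths are given, so no interval or floor was computed.

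From the deposited FPKM, log2(FPKM + 1) was taken with pandas 2.3.3 and numpy 2.4.6 in Python 3.11.15. A pseudocount of 1 shrinks differences of genes near 0. Genes with at least 5 FPKM at 10, 9 or 11 DAP were kept. The distance of a gene above both neighbours is the smaller of its 2 differences, and for a gene below both the one nearer 0. A 2-fold call is a distance of at least 1. The computation was tested on simulated data. With 1 library per stage no test was run.

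Names came from the RefSeq gene table (assembly Zm-B73-REFERENCE-NAM-5.0, names only), which matched 18368 of 34145 identifiers (53.8%), and from the authors' Arabidopsis match columns. The 32 gene lists were matched by name or description, and 7 genes that carry a listed symbol for another gene were left out. Genes named are the 14 largest peaks and 14 largest dips with at least 10 FPKM and a name, at most 2 per family, up to 2 unnamed genes each way, the 3 most abundant genes of each list and a set of known endosperm genes. Genes outside these rules, such as those marked as picked after their values were seen, are named too. The members, lists and named genes were chosen with earlier results of these data known, and the wording of some lists was revised after values were seen. Alternatives were other pseudocounts, filters, scalings, neighbours and fold limits.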

Additional observations from a re-analysis of the deposited data

How the results depend on the processing

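The count of genes at least 2-fold higher at 10 DAP than at both neighbours was 106. It was 60 with a pseudocount of 5, 211 without a filter, 61 with at least 10 FPKM in one of the 3 libraries, 52 where the average of all 8 endosperm libraries had to reach 5 FPKM, and 259 with 13 DAP in place of 11 DAP. A limit of 1.5-fold gave 271 and a limit of 4-fold 41. The count of genes at least 2-fold lower than both was 11. It was 17 with a pseudocount of 0.1, 4 with a pseudocount of 5, 6 at 10 FPKM, 4 with 13 DAP in place of 11 DAP, 72 at 1.5-fold and 0 at 4-fold. By any amount, 10578 genes stood above both and 5738 below both without a filter, 1207 stood above both at 10 FPKM, and 1298 stood below both with 13 DAP in place of 11 DAP.

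An alternative chosen after seeing the data left out genes at least 2-fold lower at 9 than at 7 DAP. It left 61 of the 106 peaks and 10 of the 16 heat shock peaks. The 16 heat shock peaks remained under both other pseudocounts and all 3 scalings, and the quantile, upper quartile and median ratio scalings kept 105, 100 and 106 of the 106 peaks. None of the 141 genes kept among those chosen for naming changed sign by more than 0.01 under any alternative that kept it. Of the 85 among them that stood above or below both neighbours, however, 28 had a distance of 0.00 with 13 DAP in place of 11 DAP, 16 with 7 DAP in place of 9 DAP, and 1, 4 and 6 under quantile, upper quartile and median ratio scaling. Of the 27 of the 141 at 2-fold or more, 3 were under 2-fold with a pseudocount of 5, 4 with 7 DAP in place of 9 DAP and 7 with 13 DAP in place of 11 DAP. The cause of these shifts was not tested, except that stricter filters leave fewer genes to count.

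No paired analysis was possible because each stage has 1 library and no result comes from a test. Leaving out a replicate was not possible for the same reason. Depth is unknown, so values of genes near the 5 FPKM limit have no stated precision, and no difference here has a measured replicate error.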
